A study of Mus musculus with 18 samples.

Results

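The Cyp4 fatty acid omega-hydroxylases are a family of membrane-bound cytochrome P450 enzymes, and 10 of their genes were followed here across 2 high-fat diets in mouse liver. They were Cyp4a10, Cyp4a12a, Cyp4a12b, Cyp4a14, Cyp4a31, Cyp4a32, Cyp4f13, Cyp4f14, Cyp4f15 and Cyp4v3, chosen as every non-control array probe that carries one of these symbols in the array files. They are 10 of 31829 gene names on the array. The rule gave 14 probes of 60 bases out of 39429: Cyp4a10 and Cyp4a31 had 3 each and the other 8 genes had 1 each.

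The animals were males of the inbred strain C57BL/6J. From 8 weeks of age they ate a high-fat diet for 5 weeks, and liver was taken at 13 weeks. In both diets lipid supplied 51.1% of the energy, carbohydrate 32.1% and protein 16.7%. The fat was linseed oil for 8 mice (9.7% saturated, 22.5% monounsaturated and 66.7% polyunsaturated, with 49.7% alpha-linolenic acid, a plant n-3 fatty acid) and palm oil for 10 mice (55.6% saturated, 34.8% monounsaturated and 8.8% polyunsaturated). No low-fat group was analysed here, so a difference between the oils can be a rise with one or a fall with the other. Genes said below to rise or fall were higher or lower on linseed oil than on palm oil, and no more is meant. RNA from each mouse was measured on 1 single-colour Agilent array, and values are log2 of the signal minus the log2 of that array's 75th percentile.

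Omega-hydroxylases add a hydroxyl group to the methyl end of a fatty acid. Alcohol and aldehyde dehydrogenases then turn the product into a dicarboxylic acid, which peroxisomes shorten. In rodent liver the Cyp4a10 and Cyp4a14 genes are textbook targets of PPARalpha, a nuclear receptor that binds fatty acids and pairs with RXR. Cyp4a12 enzymes are male-predominant and hydroxylate arachidonic acid. Cyp4f enzymes act on leukotrienes and long-chain fatty acids, and Cyp4v3 is the mouse counterpart of human CYP4V2, whose loss causes a crystalline disease of the retina.

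The Cyp4a genes lie side by side on chromosome 4, in the RefSeq order Cyp4a12a, Cyp4a12b, Cyp4a14, Cyp4a10, Cyp4a31, Cyp4a32 with other Cyp4a genes and pseudogenes between the first of them, and several are close copies. The probe sequences show how closely 2 members can be read together. The following pair are the Cyp4a10 probe A_55_P2092030 (mm9, chr4:115198463-115198522, plus strand) and the Cyp4a31 probe A_55_P1952399 (mm9, chr4:115243923-115243982, plus strand), with the bases at which they differ in capitals. They are shown because both probes were among those with the smallest adjusted p of the family and yet share most of their bases.
Cyp4a10: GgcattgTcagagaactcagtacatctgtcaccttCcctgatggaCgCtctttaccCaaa
Cyp4a31: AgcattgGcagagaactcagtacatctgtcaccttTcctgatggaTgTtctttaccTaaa
The probes matched at 54 of 60 positions. Counted from the 5′ end of the probe, the differences from Cyp4a10 to Cyp4a31 were G1A, T8G, C36T, C46T, C48T and C57T. The longest run they shared was 27 bases.

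The brightest probes of the same genes, A_51_P254895 for Cyp4a10 (chr4:115206200-115206259) and A_55_P2050628 for Cyp4a31 (chr4:115251553-115251612), also overlapped in sequence. They matched at 44 of 47 aligned bases with a shared run of 34, whose first 30 bases are printed here because the probes of both genes hold them.
Shared run: agtttctccatcttccctcctttctgcaat
A further Cyp4a10 probe, A_55_P2011111, matched A_55_P2050628 at 21 of 22 bases. The file's own annotation lists both Cyp4a10 and Cyp4a32 transcripts for A_55_P2092030, both Cyp4a31 and Cyp4a10 for A_55_P2024033, and both Cyp4a12a and Cyp4a12b for A_55_P2043083. Values of Cyp4a10, Cyp4a31 and Cyp4a12a may therefore hold signal of a neighbouring copy, and how much was not tested. The single probes of Cyp4a14 (chr4:115158914-115158973, minus strand), Cyp4a32 and Cyp4a12b listed 1 transcript each. For Cyp4a14 and Cyp4a32 the best alignment with another member's probe held 11 identical bases. Probes were aligned with each other and not with transcripts, so signal of a neighbouring copy remains possible for these 3 genes too. Exon and UTR positions are not given, since no mm9 gene annotation was used here.

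All 14 probes were well above background on 18 of 18 arrays and none was saturated on any array. Linseed oil went with higher signal of 4 Cyp4a genes, Cyp4a14, Cyp4a10, Cyp4a31 and Cyp4a32, and no called difference in the other 6 members. In limma over all 20386 probes kept, with Benjamini-Hochberg adjustment, 8 of the 14 member probes passed an adjusted p of 0.05, all of them higher on linseed oil. Of all probes tested, 0.907% were called in either direction and 0.721% were called higher. Members were chosen with earlier results of these data known, so these shares describe the set and do not test it. The median difference of the 14 probes was 1.37 on the log2 scale and that of all probes tested was 0.00. With 1 probe per gene the median of the 10 members was 0.34, since 6 of the 14 probes belong to Cyp4a10 and Cyp4a31. The image software had marked many bright spots as uneven or as outliers, and these were kept in the values given first. With marked spots left out, 9 member probes could be tested and 4 were called, all higher. Of the 19510 probes in that fit, 0.753% were called in either direction and 0.589% higher. The 4 called member probes had no marked spot, so this fit used the same signals for them and is no separate check. The other 5 of the 14 member probes, among them the only ones of Cyp4a14 and Cyp4f14, had fewer than 6 unmarked values in a diet.

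**Figure D1:**
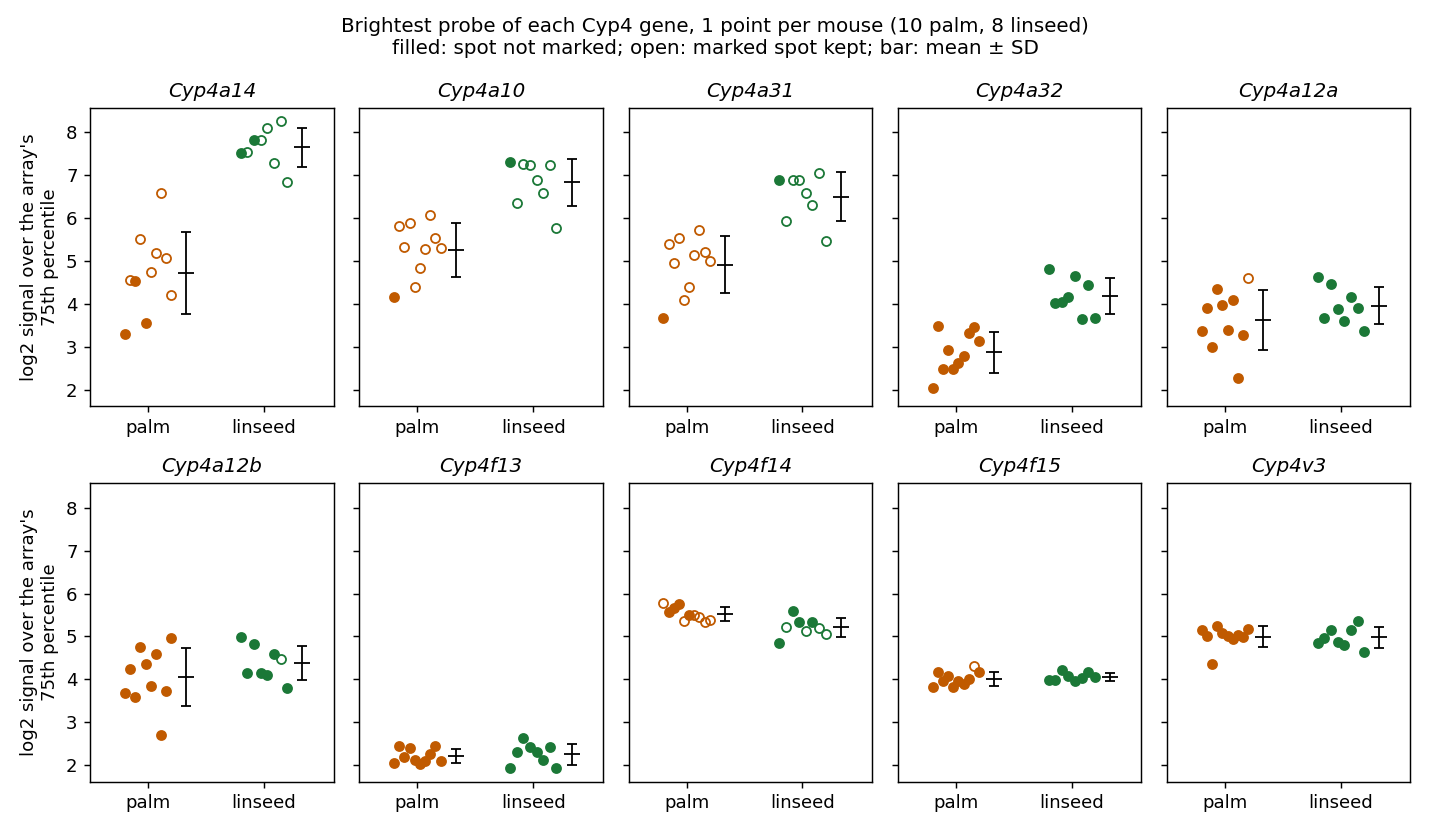
Signal of the brightest probe of each Cyp4 gene in every mouse (y axis, log2 over the array's 75th percentile), 10 palm and 8 linseed mice, with mean ± SD beside the points and marked spots drawn open. Levels are to be compared within a panel, not between probes. Cyp4a14 and Cyp4a32 show no overlap between the diets, and the share of all probes that do so is not given. The Cyp4f and Cyp4v3 panels show narrow, overlapping groups.

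Cyp4a14, which hydroxylates medium-chain fatty acids and is among the most inducible genes of rodent liver, had the widest difference. Its signal was lowest at 6.83, median 7.68 and highest at 8.26 in the linseed mice, against 3.29, 4.65 and 6.59 in the palm mice. Every linseed mouse lay above every palm mouse, with a gap of 0.24 between the groups. The share of all probes tested whose groups do not overlap is not given here. The means were 7.65 ± 0.46 (SD, n = 8) and 4.72 ± 0.95 (SD, n = 10), a difference of 2.92 ± 0.34 (SE) and 7.59-fold (adjusted p = 0.000203). Of all 20386 probes tested it had the largest excess on linseed oil over palm oil. Its spots were marked on 6 linseed and 7 palm arrays, so no fit without them could be made. Over 35 other settings, each array or slide left out among them, the difference lay between 2.72 and 3.17.

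Cyp4a10, a hydroxylase of medium- and long-chain fatty acids, was read by 3 probes that gave nearly the same difference. On the brightest, linseed values ran from 5.77 through a median of 7.06 to 7.30, and palm values from 4.15 through 5.31 to 6.07. The groups overlapped through 1 linseed mouse, and the other 7 lay above all palm mice. The difference was 1.57 ± 0.27, a 2.97-fold rise (adjusted p = 0.00622). The probe A_55_P2011111 gave 1.53 ± 0.25 (adjusted p = 0.00545). The dimmer A_55_P2092030, on which no spot was marked, gave 1.59 ± 0.23 with all spots kept (adjusted p = 0.00218).

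Cyp4a31, a close copy of Cyp4a10, also had 3 called probes. Its brightest probe ran from 5.46 through 6.74 to 7.06 on linseed oil and from 3.66 through 5.07 to 5.73 on palm oil. Again 7 of 8 linseed mice exceeded all palm mice. The difference was 1.59 ± 0.27, 3.02-fold (adjusted p = 0.00666). The probe A_55_P1952399, shown above, rose by 1.44 ± 0.21 (adjusted p = 0.00218). The dimmest member probe, A_55_P2024033, rose by 1.69 ± 0.23 (adjusted p = 0.00143); another background correction gave 1.26 for it.

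Cyp4a32, the next gene on the chromosome, also had no overlap between the diets. Linseed values were 3.65 at the lowest, 4.09 at the median and 4.82 at the highest. Palm values were 2.04, 2.85 and 3.48, so the gap between the groups was 0.17. The difference was 1.31 ± 0.20, a 2.48-fold rise (adjusted p = 0.00302), and it was the same with marked spots left out (adjusted p = 0.00325), since none was marked.

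The male-predominant pair Cyp4a12a and Cyp4a12b did not pass the test. Cyp4a12a ran from 3.37 through 3.89 to 4.62 on linseed oil and from 2.28 through 3.65 to 4.60 on palm oil. Cyp4a12b ran from 3.80 through 4.31 to 4.99 and from 2.69 through 4.05 to 4.97. The groups overlapped over most of their range for both, and the palm mice spread more widely. The differences were 0.34 ± 0.26 for Cyp4a12a (adjusted p = 0.697) and 0.34 ± 0.25 for Cyp4a12b (adjusted p = 0.688). The 95% intervals, from -0.22 to 0.90 and from -0.20 to 0.88, end below the differences of Cyp4a14 and Cyp4a10. Leaving out palm replicate 8, whose value was the lowest for both genes, gave 0.19 for each.

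Cyp4f14, which hydroxylates leukotriene B4 in mouse liver, had a lower mean on linseed oil that did not pass the test over all probes. Linseed values were 4.85 at the lowest, 5.21 at the median and 5.60 at the highest, and palm values 5.34, 5.50 and 5.79. The groups overlapped, with 7 of 8 linseed mice below the palm median. The difference was -0.32 ± 0.09, 1.25-fold lower (adjusted p = 0.135). It was negative within each of the 5 slides, from -0.64 to -0.21. A fixed block for slide gave -0.35 ± 0.08 (adjusted p = 0.04) and a random block an adjusted p of 0.0412. In values of the authors' deposited table, tested with limma in the same way, it was -0.37 ± 0.07 (adjusted p = 0.0188). Its spots were marked on 4 linseed and 6 palm arrays, and no fit without them could be made.

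The remaining Cyp4f members and Cyp4v3 showed small differences with narrow intervals. Cyp4f13, which also acts on leukotrienes, ran from 1.93 through 2.31 to 2.62 on linseed oil and from 2.02 through 2.16 to 2.45 on palm oil, a difference of 0.05 ± 0.10 (adjusted p = 0.914). Cyp4f15, a related enzyme, ran from 3.96 through 4.05 to 4.21 and from 3.81 through 3.97 to 4.31, a difference of 0.05 ± 0.07 (adjusted p = 0.869). Cyp4v3 ran from 4.63 through 4.92 to 5.37 and from 4.35 through 5.02 to 5.24, a difference of -0.02 ± 0.11 (adjusted p = 0.974). The diets overlapped almost wholly for these 3 genes. Their 95% intervals ran from -0.16 to 0.25, from -0.10 to 0.20 and from -0.26 to 0.22, and the sign of the Cyp4v3 value changed under another background correction.

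**Figure D2:**
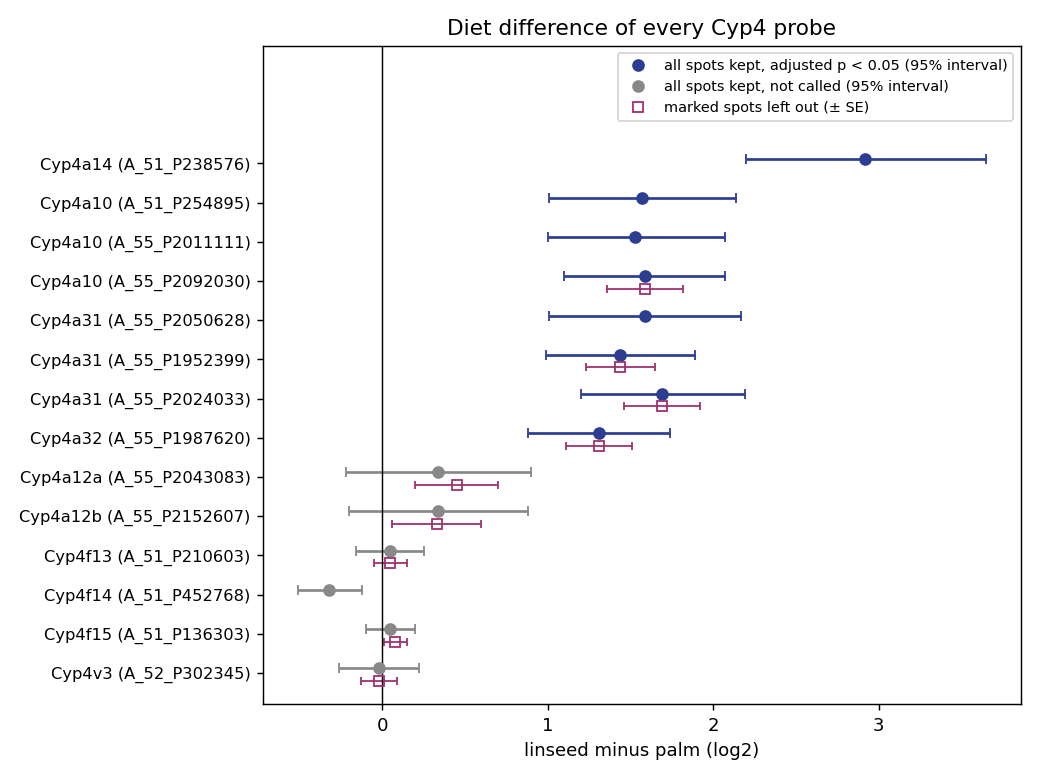
Difference between the diets for all 14 Cyp4 probes (x axis, linseed minus palm, log2), as circles with 95% intervals where all spots were kept and as open squares ± SE where marked spots were left out. The 8 called probes lie between 1.31 and 2.92. The 9 probes that could be tested without marked spots have squares on or close to their circles. Each of these was marked on at most 1 array, so both fits share all or nearly all values.

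The members were then set against each other in the same mice, asking whether the diets differed more for one gene than for another. For each of the 18 pairs within Cyp4a and within Cyp4f, the log2 difference between the brightest probes was taken per mouse and compared between diets by an exact two-sided permutation test over 43758 splits, adjusted over the 18 pairs. It differed in 13 of 18 pairs. These pairs are not separate readings, since the Cyp4a10 and Cyp4a31 probes share sequence and the Cyp4a12a probe also lists Cyp4a12b. The brightest probes of Cyp4a14, Cyp4a10 and Cyp4a31 had marked spots on 13, 16 and 16 arrays, and these spots were kept. Cyp4a14 differed from each other Cyp4a member. Its diet difference exceeded that of Cyp4a10 by 1.35 ± 0.21 (exact permutation adjusted p = 0.00103), that of Cyp4a31 by 1.33 ± 0.20 (0.00103), and that of Cyp4a32 by 1.62 ± 0.28 (0.0014). Against Cyp4a12a the excess was 2.58 ± 0.48 and against Cyp4a12b 2.59 ± 0.47 (exact permutation adjusted p = 0.0014 for both).

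Cyp4a10, Cyp4a31 and Cyp4a32 could not be separated from each other. The Cyp4a10 difference was below that of Cyp4a31 by 0.02, with a 95% interval from -0.11 to 0.07 for Cyp4a10 minus Cyp4a31 (exact permutation adjusted p = 0.716); these are the probes that share 44 bases. Cyp4a10 exceeded Cyp4a32 by 0.26, with an interval from -0.13 to 0.66, and Cyp4a31 exceeded Cyp4a32 by 0.28, from -0.13 to 0.70 (exact permutation adjusted p = 0.2 for both). Each of the 3 differed from both Cyp4a12 genes, by 0.97 to 1.26 (exact permutation adjusted p from 0.00971 to 0.0186).

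Among the Cyp4f genes, Cyp4f14 differed from both others. The diet difference of Cyp4f13 lay above that of Cyp4f14 by 0.36 ± 0.09 (exact permutation adjusted p = 0.00651), and that of Cyp4f15 lay above it by 0.36 ± 0.10 (0.00971). Cyp4f13 and Cyp4f15 differed from each other by less than 0.01, with an interval from -0.18 to 0.17 (0.984). The diets overlapped in the difference per mouse for each of the 18 pairs, those with Cyp4a14 among them.

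Arrays were on 5 slides, each with both diets and scanned as a group, so every member was also compared within slides. For slide 3 the headers of its 3 arrays held no slide number, and they were grouped by the number under which they were deposited and by their shared scan in the headers. Cyp4a14 was higher on linseed oil within 5 of 5 slides, by 1.89 to 3.95. The brightest Cyp4a10 probe was higher by 0.35 to 2.28, that of Cyp4a31 by 0.36 to 2.35 and Cyp4a32 by 0.38 to 2.11, also within 5 of 5 slides. For these 3 genes the smallest value came from slide 5, which held linseed replicate 8 alone against 2 palm mice, whereas Cyp4a14 differed by 2.20 there. Cyp4a12a and Cyp4a12b had both signs, from -0.57 to 0.86 and from -0.54 to 0.87. All 8 called probes were also called with slide as a fixed block, where adjusted p ran up to 0.0146. Leaving out slide 2 left 4 of the 8 called (the brightest Cyp4a10 and Cyp4a31 probes, A_55_P2011111 and Cyp4a32 missed the threshold) and leaving out slide 3 left 5, with differences of 1.16 or more in all 8.

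**Figure D3:**
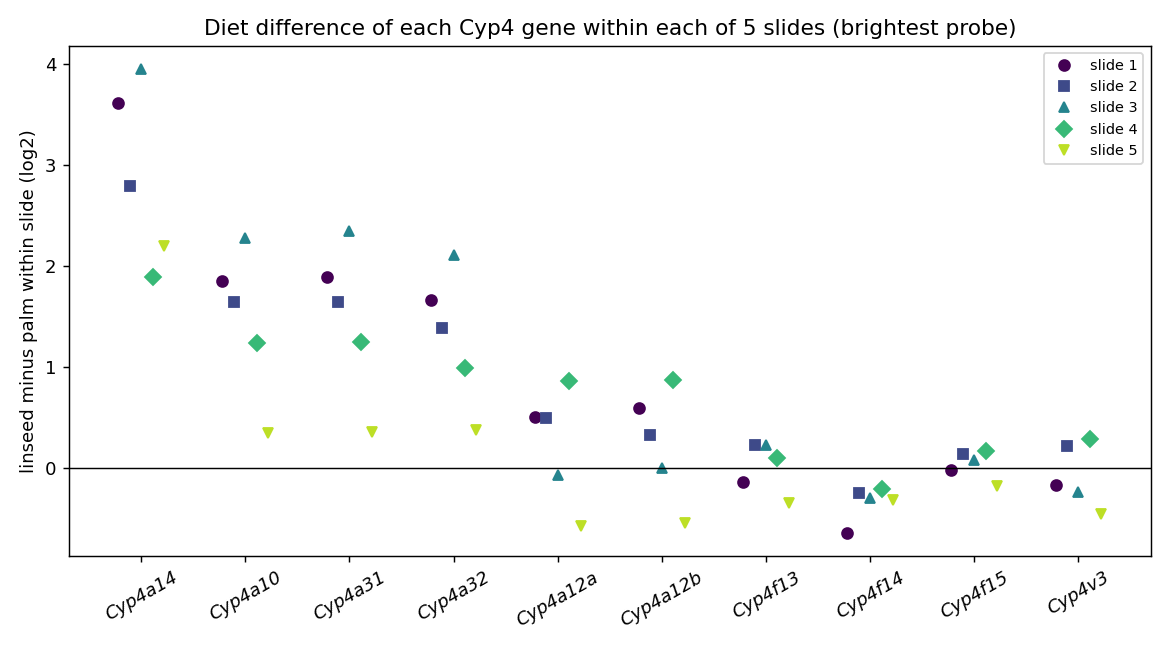
Difference between the diets within each of the 5 slides (y axis, linseed minus palm, log2, from the means of 1 or 2 mice per diet) for the brightest probe of each gene. Cyp4a14, Cyp4a10, Cyp4a31 and Cyp4a32 are above 0 on every slide, Cyp4f14 is below 0 on every slide, and the others lie on both sides.

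Mice on one diet differed from each other, and the Cyp4a genes varied together in part. Linseed replicate 8 had the lowest linseed value of Cyp4a14 (6.83), Cyp4a10 (5.77) and Cyp4a31 (5.46), and was the mouse through which Cyp4a10 and Cyp4a31 overlapped the palm group. Palm replicate 8 had the highest palm value of Cyp4a14 (6.59), Cyp4a10 (6.07) and Cyp4a31 (5.73), and yet the lowest of Cyp4a12a (2.28) and Cyp4a12b (2.69). Palm replicate 1 had the lowest palm value of Cyp4a14 (3.29), Cyp4a10 (4.15), Cyp4a31 (3.66) and Cyp4a32 (2.04).

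Correlations between brightest probes were taken within each diet, 36 in all, with permutation p adjusted over the 36; 8 passed. The near-copies gave the tightest values. Cyp4a10 and Cyp4a31 had r = 0.99 and rho = 0.90 in the linseed mice (exact permutation adjusted p = 0.00313 for r) and r = 0.99 and rho = 0.95 in the palm mice (permutation adjusted p = 0.00018). Cyp4a12a and Cyp4a12b had r = 0.98 and rho = 1.00 in the linseed mice (exact permutation adjusted p = 0.000298) and r = 0.99 and rho = 0.99 in the palm mice (permutation adjusted p = 0.00018). Without the 2 mice farthest from the median these r were 0.96, 0.97, 0.94 and 0.98, and with slide means removed they were 0.99 or more. Removing slide means leaves only the difference between 2 mice of a slide. Slides 3 and 5 held 1 linseed mouse each, so such linseed values rest on slides 1, 2 and 4 alone. Such palm values rest on 1 difference for each of the 5 slides. As both gene pairs share sequence or listed transcripts, a shared signal and a shared level cannot be told apart.

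Cyp4a14, whose probe shares little sequence with the others, followed Cyp4a10 in the palm mice with r = 0.84 and rho = 0.75 (permutation adjusted p = 0.0114 for r and 0.0769 for rho). It followed Cyp4a31 there with r = 0.85 and rho = 0.84 (0.00878 and 0.0274). With slide means removed these r were 0.88 and 0.82, and without the 2 farthest mice 0.63 and 0.73. In the linseed mice r was 0.77 with Cyp4a10 and 0.80 with Cyp4a31, which did not pass after adjustment (exact permutation adjusted p = 0.0788 and 0.0582), and fell to 0.41 and 0.40 without the 2 farthest mice. Whether the relation differs between diets was not tested. Cyp4a32 followed Cyp4a10 (r = 0.83, rho = 0.78) and Cyp4a31 (r = 0.82, rho = 0.83) in the palm mice, both with a permutation adjusted p of 0.0132 for r. For rho the adjusted p was 0.0536 with Cyp4a10, which did not pass, and 0.0274 with Cyp4a31. Without the 2 farthest mice these r were 0.63 and 0.61, and with slide means removed 0.98 and 0.99. In the linseed mice Cyp4a32 had r = 0.66 with Cyp4a10 and 0.65 with Cyp4a31, which did not pass (exact permutation adjusted p = 0.15 and 0.153). Cyp4a14 with Cyp4a32 did not pass in either diet. Its r was 0.64 in the linseed mice (exact permutation adjusted p = 0.153) and 0.61 in the palm mice (permutation adjusted p = 0.143).

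The Cyp4a12 genes did not pass against Cyp4a14: r was 0.17 and 0.24 in the linseed mice and -0.39 and -0.36 in the palm mice (exact or permutation adjusted p from 0.418 to 0.856). Without the 2 farthest mice, the palm values turned to 0.30 and 0.40. No Cyp4f pair passed; the largest was Cyp4f13 with Cyp4f14 in the linseed mice (r = 0.79, rho = 0.67, exact permutation adjusted p = 0.0582 for r).

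**Figure D4:**
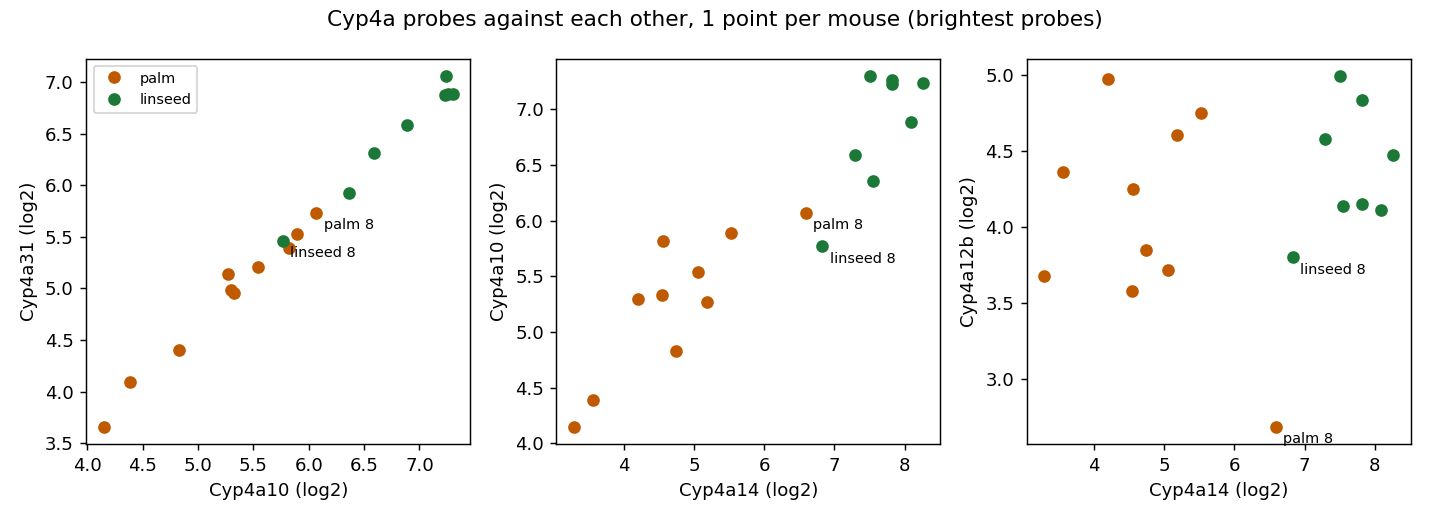
Brightest probes of 3 pairs of Cyp4a genes, 1 point per mouse, both axes in log2 over the array's 75th percentile, with linseed replicate 8 and palm replicate 8 named. Cyp4a31 follows Cyp4a10 along a line in both diets, Cyp4a10 follows Cyp4a14 more loosely, and Cyp4a12b spreads without following Cyp4a14.

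Outside the family, the genes whose pattern among mice of one diet was most like that of Cyp4a14 were ranked by the mean of r within linseed (8 mice) and r within palm (10 mice). The first 5 were Eif2s3x (mean r = 0.88), Orai1 (0.87), Zfp622 (0.85), Tmem59 (0.84) and Hnf4a (0.84). These are a translation initiation factor subunit, a calcium channel, a zinc finger protein, a membrane protein and a hepatocyte nuclear receptor. None of the 5 was called between diets, with differences from 0.00 to 0.18 on the log2 scale. With slide means removed, r in the linseed mice was 0.87, 1.0, 0.97, 0.44 and 0.55 in turn, and in the palm mice 0.83, 0.78, 0.73, 0.84 and 0.82. The 5 genes head a ranking of kept probes, 1 per gene and members left out, over few mice that share slides. The values are a description only.

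The rest of the pathway was read from lists of genes, in the order in which an omega-hydroxylated fatty acid is handled. Of 10 other Cyp4 genes on the array 4 were kept and limma called 0 in either direction (0 also at an unadjusted p below 0.05), with Cyp4f18, a leukotriene hydroxylase of white blood cells, at -0.09 ± 0.09 (limma adjusted p = 0.794). The genes that feed electrons to microsomal P450 enzymes gave 0 of 6 called, and 0 at an unadjusted p below 0.05; the smallest p was that of cytochrome b5, Cyb5a, at 0.12 ± 0.06 (adjusted p = 0.49). At the alcohol and aldehyde steps 1 of 10 rose and 0 fell, and 3 had an unadjusted limma p below 0.05. The called gene was Aldh3a2, the fatty aldehyde dehydrogenase, which was 1.92-fold higher (0.94 ± 0.14, adjusted p = 0.00218).

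Of 18 genes of peroxisomal oxidation, which shortens dicarboxylic acids, 10 had an unadjusted limma p below 0.05. The list median was 0.27 against 0.00 for all probes. By adjusted p 4 rose and 0 fell. They were Ehhadh, the bifunctional enzyme (0.83 ± 0.14), Acot4, a thioesterase for succinyl-CoA and dicarboxylic acyl-CoAs (0.75 ± 0.13), Acaa1b, a thiolase (0.67 ± 0.11), and Hsd17b4, the second multifunctional enzyme (0.30 ± 0.07). Their adjusted p were 0.00461, 0.00923, 0.00558 and 0.038 in turn, and that of Hsd17b4 was 0.0532 under a fixed block for slide. Among 14 receptors and cofactors limma called 0, where 0.907% of all probes tested were called, and 2 had an unadjusted p below 0.05. Ppara itself had its smallest p at 0.29 ± 0.09 (adjusted p = 0.145), and its brightest probe gave 0.15 ± 0.07.

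Among 20 other PPARalpha targets 6 rose and 0 fell, with a median of 0.33, and 14 had an unadjusted limma p below 0.05. The 5 with the smallest adjusted p were the acyl-CoA thioesterases Acot2 (1.17 ± 0.17) and Acot3 (1.91 ± 0.31), the pantetheinase Vnn1 (1.17 ± 0.20), the medium-chain acyl-CoA dehydrogenase Acadm (0.45 ± 0.08) and the lipid droplet gene Cidec (2.01 ± 0.36). Their adjusted p ran from 0.00172 to 0.0106, and Acadm, like Hsd17b4 and Cyp2c70, could not be tested with marked spots left out. The Acot2 probe was well above background on 13 of 18 arrays, and its call was lost with the normexp background correction (0.15, adjusted p = 0.999), as was that of Hsd17b4 (0.33, adjusted p = 0.181). All 5 differences were smaller than that of Cyp4a14; these differences between genes were not tested.

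Further lists were read beside the Cyp4f and Cyp4a12 genes. Of 18 genes of arachidonic acid and leukotriene metabolism 0 rose and 1 fell, and 3 had an unadjusted limma p below 0.05. The called gene was Cyp2c70, a P450 known for making muricholic acids, at -0.65 ± 0.10 (adjusted p = 0.00221). Among 11 male-predominant liver genes, read beside Cyp4a12a and Cyp4a12b, 1 rose and 1 fell, with a median of -0.19. Over all probes tested 0.907% were called. An unadjusted limma p below 0.05 was found for 5 of the 11. Of these, Ces2e was higher and Hsd3b5, Mup21, C8b and Nat8f5 were lower. With slide as a fixed block in limma, C8b also passed (adjusted p = 0.0483). Ces2e, a carboxylesterase, rose on 1 of its 2 probes (0.54 ± 0.11, adjusted p = 0.0277), its brighter probe giving 0.41 (adjusted p = 0.127), and Nat8f5, an acetyltransferase-like gene, fell (-0.96 ± 0.19, adjusted p = 0.0239).

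**Figure D5:**
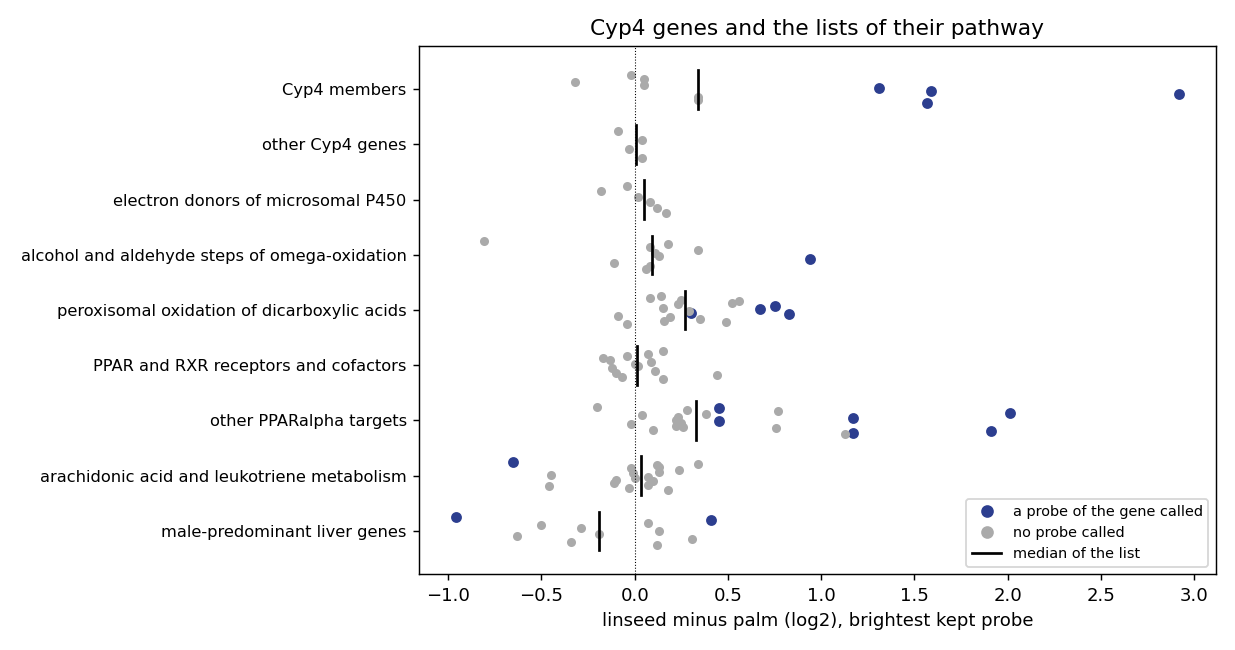
Difference between the diets (x axis, linseed minus palm, log2, brightest kept probe) for each gene of the Cyp4 family and of 8 lists of its pathway, with called genes in blue and the list's median as a bar. Cyp4a14 lies farthest to the right at 2.92, and the lists of peroxisomal genes and PPARalpha targets have medians of 0.27 and 0.33.

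The promoter table used here (RefSeq, GRCm38.p6, 300 bases at each gene's start) held windows of 5 members, among them Cyp4a32 alone of those that rose. The PPAR-RXR core site AGGTCA, searched on both strands, was in 16.3% of 32851 promoters, and its direct repeat with 1 base between the copies was in 0.0396%. Those letters did not occur in the windows of Cyp4a32, Cyp4f13, Cyp4f14, Cyp4f15 or Cyp4v3, which says nothing of sites elsewhere.

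Across the series, 17258 to 22445 probes per array were well above background and 238 to 1703 spots per array were marked. Marking differed by slide, with 238 to 424 spots per array on slides 1 and 2. It was 556 to 682 on slide 3 and 1283 to 1703 on slides 4 and 5. The median difference of all probes was 0.002, and lay between -0.023 and 0.002 over the scalings tried. Of 54 marker genes kept for hepatocytes, Kupffer cells, neutrophils, endothelium, stellate cells, bile ducts, fat and kidney tubule, 0 were called by limma. An unadjusted limma p below 0.05 was found for 2 of them. Over all probes tested only 0.907% were called in either direction, so 0 of 54 cannot show an unchanged cell make-up. The part of these markers in the Cyp4 differences was not tested. The hepatocyte markers, albumin and transthyretin among them, were bright in every mouse, with a summed log2 level of 10.88 to 11.64 on linseed oil and 11.01 to 11.50 on palm oil. The fat markers Adipoq, Lep, Retn and Plin1 and 6 of 8 kidney markers were not well above background on enough arrays to be kept. The other 4 fat markers were kept and had higher means on linseed oil: Cfd by 2.54 ± 0.88 (unadjusted p = 0.00968, adjusted p = 0.251), Fabp4 by 0.38, Car3 by 0.23 and Lipe by 0.18, the last at -0.01 with normexp. The summed log2 level of the fat markers ran from 6.95 to 7.95 on linseed oil and from 6.52 to 7.59 on palm oil. That sum was mostly Car3, with means of 7.41 on linseed oil and 7.18 on palm oil. The means of Cfd, the next brightest on linseed oil, were 2.61 and 0.07. In whole liver, fewer cells of a type and less RNA per cell cannot be told apart. The number of arrays limits the precision of every value, and the p-values measure only the spread between these mice.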

How the data were processed

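Liver RNA of 18 mice was measured on single-colour arrays; per the file headers, the authors extracted spot intensity values with Agilent Feature Extraction 9.5.3.1 (mm9 probe annotation), and limma also stands in the submitters' processing notes. The authors' deposited table of log2 values (18060 probes, medians near 7.85, filter and scaling not given in the sources used here) ranks as the median spot signal does and served as an alternative. The processed signal was put on the log2 scale, minus each array's 75th percentile of non-control spots; spots of a probe were averaged, and marked spots were kept, with a second fit that left them out (at least 6 values per diet). Probes well above background on at least 8 arrays were tested singly with limma 3.58.1 in R 4.3.3 (a two-sided test of diet alone, called at a Benjamini-Hochberg adjusted p below 0.05). The 95% intervals use the SE and 16 residual degrees of freedom. Symbols were updated through RefSeq GRCm38.p6 (26055 probes by accession, 3195 by symbol, 930 by synonym, 9249 kept as given), and 5 of 10 members had promoter windows. Named genes were all members, all called genes of a list up to 5 by adjusted p, or the one with the smallest p, and the 5 most like Cyp4a14. Members and lists were chosen with earlier results of these data known. Replicate numbers were taken not to pair mice. The fit was tested on simulated data. Alternatives were other background corrections, scalings, filters, slide and replicate blocks, array weights, trended moderation and leaving out arrays or slides.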

Additional observations from a re-analysis of the deposited data

Results flagged for a closer look

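Of 28 groups of values examined (14 probes in 2 diets), 1 had a mouse far from the rest, about as many as chance gives at 1 in 20 groups. Palm replicate 3 had a Cyp4v3 signal of 4.35 on the log2 scale, below the next lowest palm mouse at 4.94, a gap of 0.659 of the group's range; its spot was not marked.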

How the results depend on the processing

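Cyp4a14 was called in all 35 alternatives in which it could be fitted (2.72 to 3.17). The count of 8 called Cyp4 probes stayed between 7 (without slide 1) and 9 except with marked spots left out (4 of 9 testable), without slide 2 (4) or slide 3 (5), with the replicate number as a block (1, Cyp4a14), and with 1 probe per gene (4 of 10, chosen after seeing the data); without any 1 array it was 8 in each case. Same-numbered mice had residual correlations from -0.21 to 0.459, not all above 0.1, so the numbers were not taken as pairs; under the replicate block all 8 kept their direction (those not called had adjusted p from 0.0714 to 0.105), all probes called fell from 185 to 30, and 7 of 18 pairs passed instead of 13. For all probes, 86 were called with normexp, 58 with no filter, 312 with slide as a random block, 122 in the authors' values, 85 to 217 without 1 array, and 30, 56, 37, 75 and 103 without slides 1 to 5. With marked spots left out, 2 of 4 testable pairs and 2 of 8 testable relations passed. Relations with slide means removed are values without a test, and those of the linseed mice rest on slides 1, 2 and 4 alone. Signs of diet differences and of their pairwise differences turned only where the value was near 0; r of Cyp4a12a and Cyp4a12b with Cyp4a14, which had not passed, turned from 0.17 and 0.24 to -0.25 and -0.13 with slide means removed in the linseed mice and from -0.39 and -0.36 to 0.30 and 0.40 without the 2 farthest palm mice. Cyp4v3 was 0.020 with normexp, 0.0029 under the replicate block, 0.026, 0.017 and 0.052 without slides 1, 3 and 5, and -0.090 to 0.030 without 1 array. Cyp4f13 was -0.021 without slide 2 and -0.0068 to 0.093 without 1 array. Cyp4a12a against Cyp4a12b was -0.0093 with normexp, -0.024 in the authors' values, -0.0045 within slides and -0.016 to 0.023 without 1 array; Cyp4f13 against Cyp4f15 was -0.033 to 0.045 and Cyp4a10 against Cyp4a31 -0.045 to 0.00073. The cause of these changes was not tested.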
